A study of Mus musculus with 3 samples.

Results

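The limbal class comprised 737 of the 38111 cells of a single-cell RNA-seq survey of mouse corneal epithelium, and it was made up of every cell that the deposited cell table labels LSC. The cells came from healthy, untreated C57BL/6J mice in 3 droplet libraries made with a 10x Chromium 3′ kit, and the study had no second strain, treatment or time point. Library 1 pooled 4 corneas from 2 male mice aged 20 weeks, library 2 pooled 4 corneas from 2 female mice aged 11 weeks, and library 3 pooled 7 corneas from 7 male mice aged 10 weeks. Every pair of libraries therefore differed in age and in sex, number of mice or both, each library is 1 pooled sample, and no test was made between libraries. The limbal class held 163, 348 and 226 cells in libraries 1, 2 and 3, which was 1.72%, 3.09% and 1.303% of the cells of each library (exact 95% intervals 1.47 to 2.00%, 2.78 to 3.42% and 1.14 to 1.48%, covering counting error only).

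The other epithelial labels, each compared with the limbal class, were basal (8829 cells), TAC1 (4136), TAC2 (3186), wing (13447), superficial (5240, labelled Squam) and conjunctival (2422, labelled Conj). A further 114 immune cells served only to show the level of free RNA. Limbal cells had a median of 8690 UMIs (unique molecular identifiers, each a counted RNA molecule) and 2432 genes per cell. The median UMI count was 10074, 9151.5 and 6242 in the 3 libraries, and the limbal sums held 2371435, 4271778 and 1733800 UMIs. Libraries shared 32 to 57 cell barcodes by pairs, 0 of them in limbal cells. Values per class are given as CPM, the UMIs of a gene scaled to those of all genes of that class in that library, and means are given ± SD over the 3 libraries. Because the authors' classes rest on the expression of these same cells, the tests below measure how steady a difference was over the 3 libraries and do not test whether the class exists.

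The limbus is the ring of tissue between the cornea and the conjunctiva, and its basal epithelium is known to harbour the stem cells that renew the corneal surface. Their daughters move inwards into the basal layer of the cornea, divide, and rise through the wing layer to the superficial cells that meet the tear film. Limbal stem cells are known for low expression of corneal differentiation genes, for rare division, and for a niche in which bone morphogenetic protein (BMP), Wnt, Notch and growth factor signals meet the basement membrane.

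Gpha2 and Ifitm3 are the markers of the class that the results below turn on, and their promoter windows are printed because both hold an interferon-type motif. Gpha2 encodes a subunit of a glycoprotein hormone and lies on chromosome 19 (mm10, 6226380 to 6227768, plus strand). Ifitm3 encodes an interferon-inducible membrane protein that restricts virus entry and lies on chromosome 7 (mm10, 141009586 to 141010770, minus strand). The windows span 250 bases before to 50 bases after each RefSeq start (GRCm38.p6), at chr19:6226151-6226450 on the plus strand and chr7:141010695-141010994 on the minus strand. Capitals mark matches of GAAA, any 2 bases and GAAA again, the core of the interferon-stimulated response element, searched on both strands and chosen after the sequences had been seen.
Gpha2: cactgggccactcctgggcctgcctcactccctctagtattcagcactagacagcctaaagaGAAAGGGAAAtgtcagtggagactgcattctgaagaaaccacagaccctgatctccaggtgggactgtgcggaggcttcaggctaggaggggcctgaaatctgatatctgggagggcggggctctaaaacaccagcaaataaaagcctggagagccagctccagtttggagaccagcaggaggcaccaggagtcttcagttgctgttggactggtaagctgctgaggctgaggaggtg
Ifitm3: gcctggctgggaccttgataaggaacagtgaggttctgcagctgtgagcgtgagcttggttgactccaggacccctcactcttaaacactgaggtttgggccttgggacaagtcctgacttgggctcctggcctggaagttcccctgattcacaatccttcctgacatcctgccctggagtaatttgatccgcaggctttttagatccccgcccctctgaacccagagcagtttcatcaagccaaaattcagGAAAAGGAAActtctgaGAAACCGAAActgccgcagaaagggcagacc
The Gpha2 window held 1 match, beginning at base 63 of the window, and the Ifitm3 window held 2, beginning at bases 253 and 270, just past the start. A match was present in 943 of 27025 RefSeq promoter windows (3.49%) and in 7 of the 327 windows that could be matched to the genes higher in limbal cells than in every other class (2.14%). The motifs GGCGCC and CACCTG were searched as well. GGCGCC was in 12.0% of all windows and 23.2% of the 327, and CACCTG in 20.0% and 16.2%. The Gpha2 window also held a CACCTG match, read as CAGGTG and beginning at base 118. A match describes the letters and is not evidence of a bound factor.

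The 5 marker genes of the class were all higher in limbal cells than in the basal cells of the cornea. Class and markers were chosen with earlier results of these data known, so these levels describe the label and do not test it. Gpha2 stood at 2671, 2847 and 2582 CPM in the limbal cells of libraries 1, 2 and 3, while the class means were 115 for basal, 121 for TAC1, 133 for TAC2, 21.8 for wing, 31.0 for superficial and 88.7 for conjunctival cells. The lowest limbal library lay far above the highest library of any other class, at 222 CPM. Cd63, a tetraspanin of late endosomes and exosomes on chromosome 10 (128900989 to 128912822), was the steadiest of the 5, at 118, 122 and 123 CPM against 0.242 to 7.87 CPM elsewhere. Ifitm3 stood at 587, 888 and 848 CPM against 10.7 to 123 CPM elsewhere, with no overlap of libraries.

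Id1, an inhibitor of basic helix-loop-helix factors and a target of BMP signals on chromosome 2 (152736251 to 152737410), was at 364, 305 and 362 CPM in limbal cells. In the other classes its mean ran from 8.63 in basal, 10.8 in TAC1 and 24.5 in TAC2 cells to 79.3 for wing, 98.2 for superficial and 180 for conjunctival cells. The limbal excess over conjunctival cells was accordingly small, at 0.55 ± 0.08 (SE) on the log2 scale with an edgeR adjusted p of 1.35e-05, and a single fit over all 7 classes did not call it (adjusted p = 0.18) nor the difference from superficial cells (0.14). Krt14, the basal-cell keratin on chromosome 11 (100203162 to 100207548), was at 2775, 4995 and 2816 CPM and thus highest in library 2. It exceeded the basal class by 2.45 ± 0.06 and the TAC2 class by 1.62 ± 0.17 on the log2 scale, but its difference from conjunctival cells (3.65 ± 1.20) was not called (edgeR adjusted p = 0.115). Conjunctival Krt14 was itself uneven, at 121, 1255 and 58.5 CPM in the 3 libraries, and the limbal and conjunctival libraries did not overlap.

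**Figure D1:**
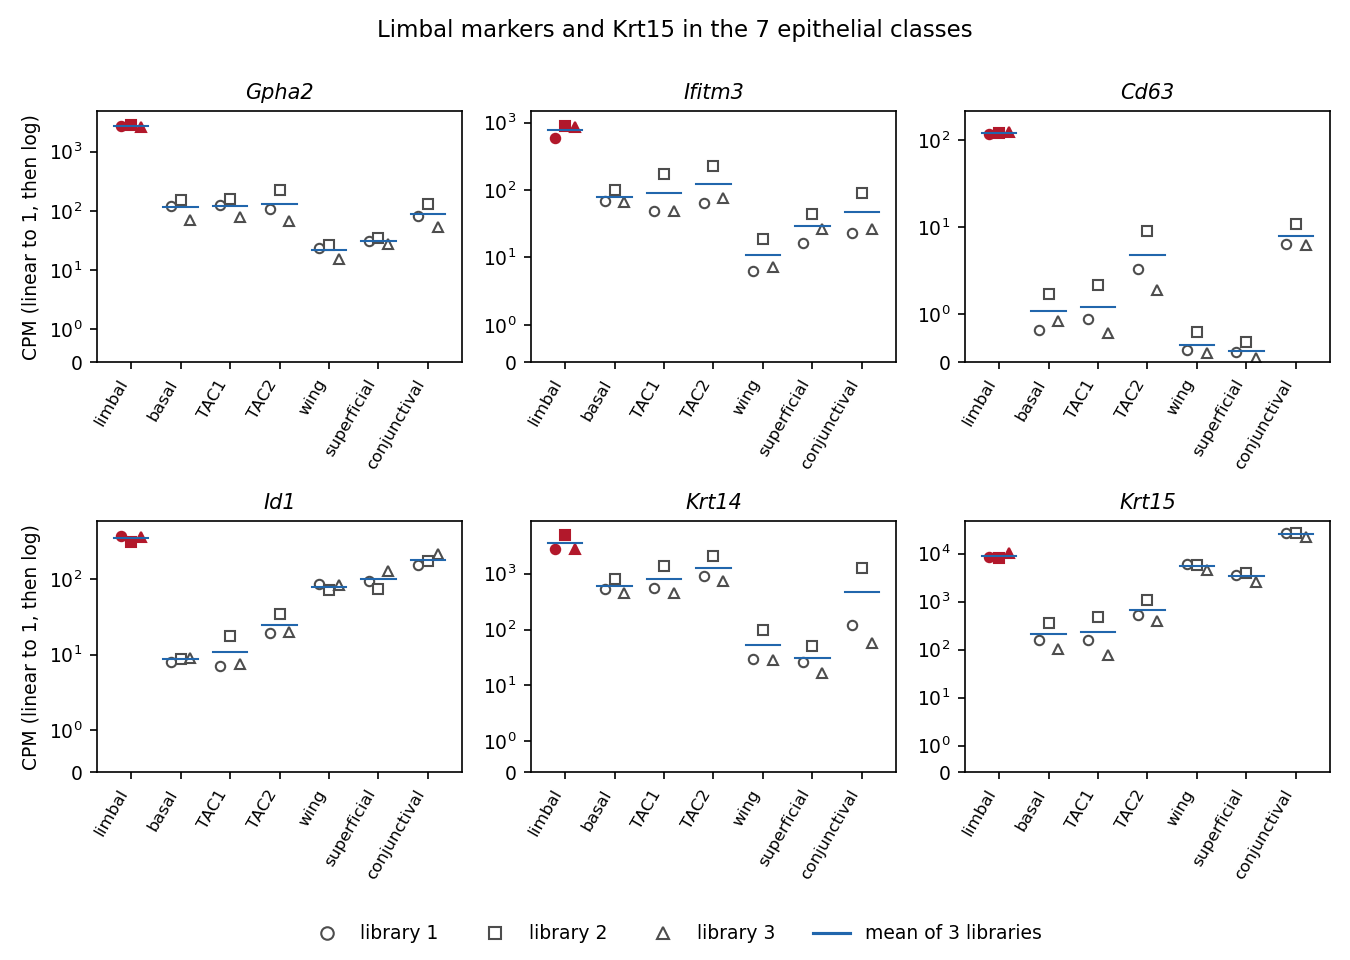
Expression of the 5 limbal markers and Krt15 in CPM (linear up to 1, then logarithmic) for each library, with 3 points per class and a line at their mean; limbal points are filled red. For Gpha2, Ifitm3, Cd63, Id1 and Krt14 the 3 limbal points lie above every point of the other 6 classes, whereas Krt15 is highest in conjunctival cells.

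To set detection per cell beside background, every cell was thinned to 2000 UMIs, which left 727 limbal and 56 immune cells (10 and 58 cells were shallower). Gpha2 was then seen in 81.3 ± 6.26% of limbal cells (82.7%, 86.7% and 74.4% by library), against 17.5 ± 5.06% of basal and 3.99% of immune cells, which should lack it. Ifitm3 was seen in 65.7% of limbal, 13.5% of basal and 9.88% of immune cells, and Krt14 in 84.9%, 51.1% and 8.75%. Id1 was seen in 48.1% of limbal, 28.6% of conjunctival, 1.61% of basal and 1.90% of immune cells. Cd63 was seen in 25.1% of limbal and 0.164% of basal cells, and in 51.5% of immune cells, which are known to express it. Immune shares here and below are means over the 3 libraries and are rough. In library 3, 15 of the 20 immune cells were too shallow to enter. Without thinning the limbal shares were 93.8% for Gpha2, 89.0% for Ifitm3, 91.9% for Krt14, 81.3% for Id1 and 62.9% for Cd63. Of the 727 limbal cells, 66 carried all 5 markers at this depth, 207 carried 4, 267 carried 3, 109 carried 2, 51 carried 1 and 27 carried none.

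Markers of most blood and stromal cell types were at or near 0 in limbal cells, while goblet and Schwann cell lists were not. Of 8 leukocyte markers 7 were in the table and summed to 1.15 to 2.81 CPM per limbal library, with Ptprc, Tyrobp, Lyz2 and Laptm5 at 0. Of 5 melanocyte markers 3 were in the table and summed to 0.577 to 2.95 CPM, with Mlana at 0, and Pecam1 of vascular endothelium was at 0. Of 7 fibroblast markers only Dcn and Vim were in the table. They summed to 14.05 to 24.9 CPM in limbal cells and to at most 2.98 CPM in any library of another class, and their part in the matrix results below was not tested. Of 5 goblet cell markers 3 were in the table, with Spdef and Tff1 at 0 in limbal cells and the whole sum of 32.5 to 57.1 CPM coming from Agr2, a protein-folding gene of secretory cells. That sum overlapped the conjunctival one (36.3 to 48.7 CPM) and lay above the basal one (0.486 to 1.04 CPM). Schwann cell markers (3 of 4 in the table) summed to 64.0 to 77.2 CPM, against 31.2 to 43.8 CPM in basal and 161 to 193 CPM in superficial cells. The part of such cells in the results was not tested. The median share of mitochondrial UMIs was 2.42% in limbal and 1.90% in basal cells.

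Library 2, which had the largest limbal share, also had the highest Gpha2, Ifitm3, Cd63 and Krt14 levels within each of the other 6 classes. Of the 5 markers and the 20 genes named next, 17 of 25 were highest in library 2 in at least 5 of the 6 other classes. Whether free RNA from limbal cells contributed to those levels was not tested.

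Across all genes, limbal cells differed in level from each of the other classes. Against basal cells 4876 of 12116 genes tested were called at an adjusted p under 0.05 (40.2%, with 21.4% higher and 18.8% lower). Against TAC1 5097 of 11304 were called (45.1%, 22.4% higher, 22.7% lower) and against TAC2 5201 of 11445 (45.4%, 23.1% higher, 22.4% lower). The counts were 7323 of 12982 against wing cells (56.4%, 27.4% higher, 29.0% lower), 9449 of 11777 against superficial cells (80.2%, 40.2% higher, 40.1% lower) and 7471 of 11222 against conjunctival cells (66.6%, 33.3% in each direction). Across 8907 genes the limbal profile ranked most like the basal one (mean Spearman rho over the 3 libraries 0.881), followed by TAC1 (0.869), TAC2 (0.861), wing (0.850), conjunctival (0.824) and superficial cells (0.661). Those correlations are across genes of cells from the same libraries and are a description; the order varied by library, with TAC1 (0.893) above basal cells (0.891) in library 2, wing (0.850) above TAC2 (0.848) in library 1, and wing above both TAC classes in library 3. Scaling mattered for direction: with library totals in place of TMM scaling, the median of all genes moved by 0.12 against basal, 0.26 against wing, 0.39 against conjunctival and 1.29 against superficial cells on the log2 scale. The share of calls that were higher in limbal cells then moved from 53.2% to 67.7%, from 48.6% to 67.2%, from 50.05% to 71.8% and from 50.05% to 81.1% in the same 4 comparisons, and from 49.7% to 60.3% against TAC1. Fold changes below are relative to the TMM scale.

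A gene was counted as higher in limbal cells than in every other class when it was called in all 6 comparisons and was higher in 3 of 3 libraries in each. This held for 424 of the 10856 genes tested in all 6 (3.91%), of which 248 were at least 2-fold and 133 at least 4-fold above the nearest class. The number was 276 with equal cell numbers and 180 at 2000 UMIs per cell. The 20 genes with the largest smallest fold are described by their known roles in 4 sets drawn up after their values were seen, with Igfbp2, Id3 and Sox4 among the signalling genes and transcription factors further on. Of these 20, all were called in 6 comparisons with library totals too, and 12 held under each of 12 alternative analyses.

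Lipid and retinoid handling was represented by Apoe, Pltp and Rdh10. Apoe, the apolipoprotein of cholesterol-rich particles, stood at 3238, 2634 and 2604 CPM in limbal cells and at 14.2 to 358 CPM elsewhere, and exceeded its nearest class, TAC2, by 3.07 ± 0.38 (SE, edgeR adjusted p = 0.0276). It was seen in 87.2% of limbal cells at 2000 UMIs but also in 66.6% of immune cells, where macrophage expression is known. Pltp, a phospholipid transfer protein, was at 54.8, 45.9 and 26.0 CPM against at most 3.52 CPM on average elsewhere. Rdh10, which makes retinaldehyde from retinol, was at 59.0, 43.5 and 59.4 CPM against 4.17 to 9.78 CPM. On the TMM scale its log2 fold was nearly the same against all 6 classes, 2.42 to 2.53. That evenness depends on the scaling, since the mean was 9.78 CPM in TAC2 but 4.17 CPM in superficial cells. Cyp26b1, which degrades retinoic acid, went the other way and was lower in limbal cells (12.2, 10.53 and 6.34 CPM) than in all 6 classes (23.5 to 43.2 CPM), with the smallest log2 fold change, -1.17 ± 0.18, against TAC2.

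Secreted and matrix-linked genes made up the second group. Sbspon, a secreted thrombospondin-repeat protein, was at 29.1, 15.5 and 20.2 CPM and had no UMI in TAC1 cells, and its closest class was TAC2 at 0.549 CPM (log2 fold change 5.17 ± 0.44). Ccdc3, a secreted protein, was at 101, 113 and 78.4 CPM and next highest in TAC2 at 4.43 CPM. At 2000 UMIs it was seen in 25.9%, 21.1% and 11.0% of limbal cells and in 0 of 56 immune cells, so it was detected in a minority of the class. Thbs1, an adhesive matrix glycoprotein, stood at 32.5, 36.5 and 47.3 CPM against 0.311 to 7.54 CPM. Mdk, a heparin-binding growth factor, was at 48.5, 54.5 and 35.2 CPM against 0.182 to 9.03 CPM, and the ribonuclease gene Rnase4 was at 63.7, 43.5 and 29.99 CPM against 0.392 to 7.36 CPM. In each of these the limbal libraries lay above all libraries of the other classes. Wfdc18, a secreted protease-inhibitor-type gene, was uneven, at 55.2, 382 and 13.3 CPM, so its mean of 150 CPM rested on library 2 and it was called in all 6 comparisons under only 4 of the 12 alternatives. Cp, the copper oxidase ceruloplasmin, was at 33.7, 16.4 and 15.6 CPM against at most 1.23 CPM on average.

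The third group comprised cytoskeletal genes. Csrp2, a LIM protein of the actin cytoskeleton, was at 260, 170 and 113 CPM against 0.611 to 17.2 CPM. Actn1, which cross-links actin, stood at 17.3, 23.2 and 20.2 CPM against 0.376 to 2.36 CPM. Pdlim4, another actin-associated LIM protein, was at 24.9, 38.6 and 16.1 CPM against 0.0600 to 1.48 CPM. All 3 were closest to TAC2 cells, with log2 fold changes of 3.38 ± 0.32, 3.103 ± 0.27 and 4.18 ± 0.24. The fourth group held membrane and ion-handling genes: Car12, a membrane carbonic anhydrase, at 31.2, 29.0 and 32.3 CPM against at most 1.26 CPM on average, and Atp1b1, the beta subunit of the sodium pump, at 70.8, 50.6 and 45.6 CPM against 0.787 to 9.35 CPM. Tmem176b, a membrane protein also known in dendritic cells, was at 492, 528 and 318 CPM against 2.76 to 75.6 CPM. Fmo1, a flavin monooxygenase, was at 24.9, 25.8 and 20.2 CPM against at most 1.16 CPM.

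**Figure D2:**
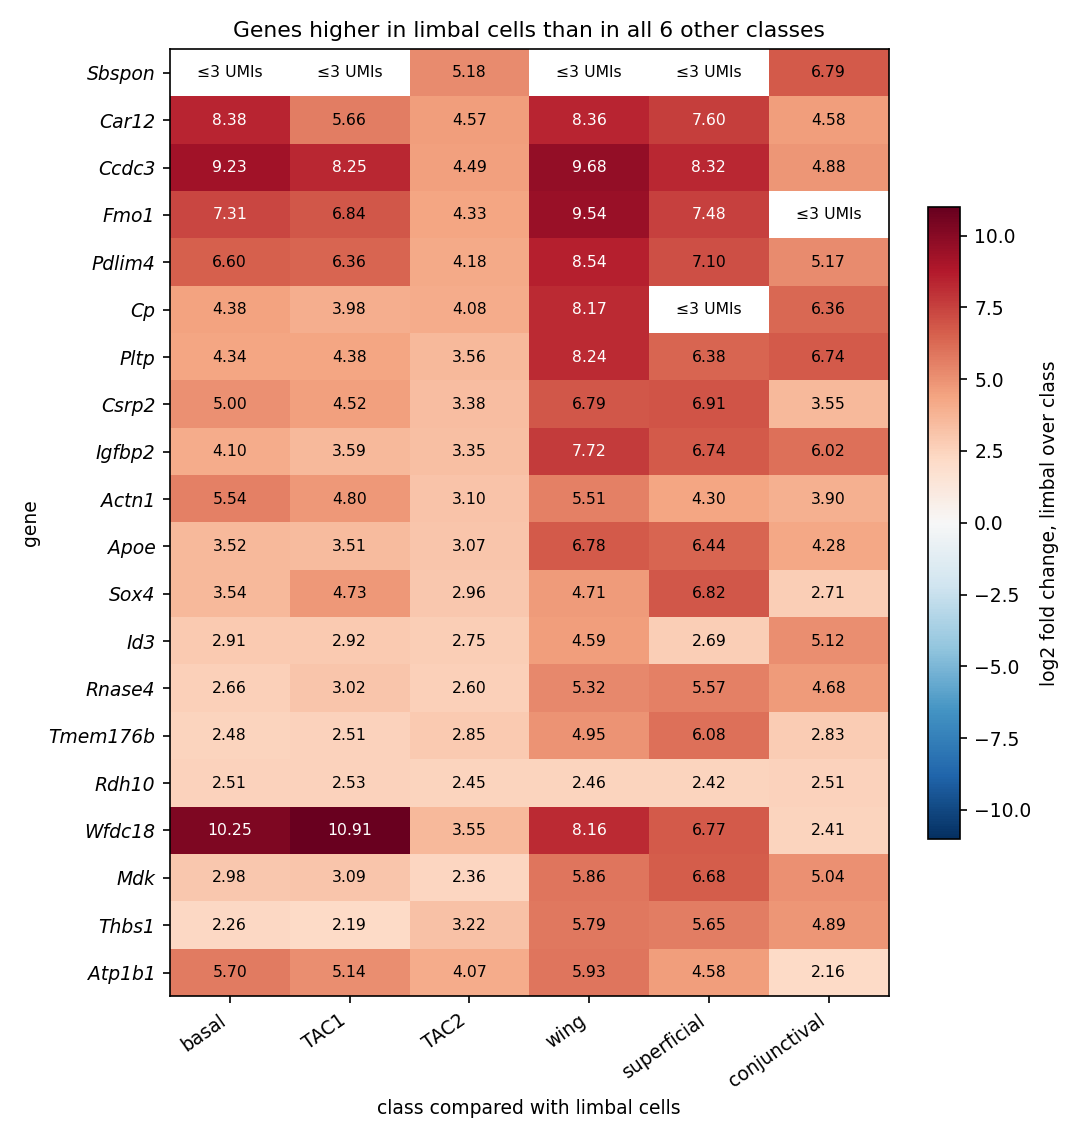
Log2 fold change of limbal cells over each of the other 6 classes (columns) for the 20 genes with the largest smallest fold (rows), from the edgeR fits; cells marked with ≤3 UMIs had too few counts in the class compared for a fold. The smallest fold of a gene is most often the one against TAC2. Rdh10 varies least, from 2.42 to 2.53, on the TMM scale used here.

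TAC2 was thus the nearest class for many of these genes. Calls against TAC2 were also lost most often when a library was left out. Such fits have fewer sums and less power, so a lost call need not mean that the difference rested on that library. Gpha2 against TAC2 (4.53 ± 0.51, edgeR adjusted p = 0.0226) was not called without library 1 (edgeR adjusted p = 0.18), library 2 (0.0501) or library 3 (0.083), with log2 fold changes of 4.48, 4.95 and 4.13. Without library 1 the calls of Ifitm3, Cd63, Ccdc3, Igfbp2 and Apoe against TAC2 were lost as well, and without library 3 those of Ifitm3, Ccdc3, Pltp, Csrp2, Igfbp2 and Apoe.

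Among signalling genes, the BMP and transforming growth factor beta (TGF-beta) list was mostly higher in limbal cells. Of its members tested, 12 of 23 were higher and 4 lower against basal cells, with a median log2 fold change of 0.31 (all genes -0.01). The counts were 16 higher and 2 lower of 22 against wing cells (median 1.40) and 15 higher and 1 lower of 21 against conjunctival cells (median 1.00). List counts here and below stand beside the shares of all genes tested. Those were 21.4% higher and 18.8% lower against basal, 22.4% and 22.7% against TAC1, and 23.1% and 22.4% against TAC2 cells. For wing cells they were 27.4% and 29.0%, for superficial cells 40.2% and 40.1%, and for conjunctival cells 33.3% in each direction. Id1, Id3, Id4, Fst, Smad5, Tgfb2 and Tgfbr2 were higher than in every other class. Id3, like Id1 a BMP target, stood at 467, 335 and 235 CPM against 7.31 to 52.2 CPM, and its limbal libraries did not overlap any other. In contrast to Id1, which was next highest in conjunctival cells, Id3 was lowest there, 5.12 ± 0.39 below limbal cells on the log2 scale. Id2 was higher in superficial cells (651 CPM) than in limbal cells (169, 122 and 120 CPM). Tgfb2, a TGF-beta ligand, was at 10.54, 9.83 and 9.81 CPM against at most 0.587 CPM on average, with folds from 3.63 ± 0.32 against conjunctival cells upwards. Fst, the activin antagonist follistatin, was at 8.01, 3.04 and 5.19 CPM against 0.0108 to 1.497 CPM. Without library 1 it was called in 5 of the 6 comparisons, and with equal cell numbers or 2000 UMIs per cell in 1.

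Wnt pathway genes did not move as a block. Against basal cells 12 of 28 were higher and 7 lower (median 0.19), and against superficial cells 23 of 28 were higher and 5 lower (median 1.61). Higher than in every class were Axin2, Tcf7, Rnf43, Znrf3, Sfrp1 and Lgr4. Axin2, a feedback inhibitor and common readout of canonical Wnt signalling, was at 11.4, 7.49 and 14.996 CPM and next highest in conjunctival cells at 3.37 CPM (log2 fold change 1.34 ± 0.22, edgeR adjusted p = 2.4e-05). Sfrp1, a secreted Wnt antagonist, was at 232, 208 and 175 CPM against 6.27 to 133 CPM. Lgr4, a receptor for R-spondins, was at 64.5, 40.7 and 70.4 CPM against 8.52 to 32.01 CPM, with libraries that overlapped those of conjunctival cells. Its relative Lgr6, a stem cell marker in other epithelia, was at only 4.64, 1.87 and 4.61 CPM, and had no UMI in basal, TAC1, wing, superficial or conjunctival cells. The ligand Wnt4, in contrast, was at 407, 486 and 418 CPM and was called lower in limbal cells than in all 6 classes. That direction turned against superficial cells (366 CPM) when library totals replaced TMM.

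Of 16 Notch pathway genes 4 were higher and 6 lower than in basal cells, 6 higher and 6 lower than in wing cells, 11 higher and 5 lower than in superficial cells, and 7 higher and 7 lower than in conjunctival cells. Over all genes tested the shares were 21.4% higher and 18.8% lower against basal cells and 27.4% and 29.0% against wing cells. They were 40.2% and 40.1% against superficial cells and 33.3% in each direction against conjunctival cells. Notch1, a receptor, was at 92.8, 85.7 and 95.7 CPM and higher than in all 6 classes (5.86 to 63.6 CPM), by 0.53 ± 0.09 against TAC2. The ligand Dll1 (11.4, 13.1 and 23.6 CPM) and the Notch-modifying enzyme Lfng (4.64, 6.09 and 4.04 CPM) were lower than in basal cells, by -1.08 ± 0.15 and -1.48 ± 0.21, and higher than in wing, superficial and conjunctival cells. The list's median was -0.10 against basal cells and turned to 0.02 with library totals.

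Most insulin-like growth factor (IGF) genes tested were higher in limbal cells, with 8 of 11 higher and 1 lower against basal cells (median 1.19) and 6 of 9 higher and 1 lower against conjunctival cells (median 2.13). The binding proteins Igfbp2, Igfbp3 and Igfbp4 were higher than in every other class. Igfbp2 stood at 206, 363 and 179 CPM against 0.989 to 28.8 CPM, and was next highest in TAC2 (log2 fold change 3.35 ± 0.48, edgeR adjusted p = 0.0361). Igfbp7 was at 139, 190 and 112 CPM against 0.391 to 17.3 CPM, and it was called in 5 comparisons and not against TAC2 (3.34 ± 0.72, edgeR adjusted p = 0.074). Kitl, the ligand of the Kit receptor that melanocytes carry, was at 153, 103 and 134 CPM. It exceeded all 6 classes under each of the 12 alternative analyses, by 1.77 ± 0.20 against TAC2 (37.5 CPM) and 5.29 ± 0.14 against conjunctival cells (2.48 CPM).

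**Figure D3:**
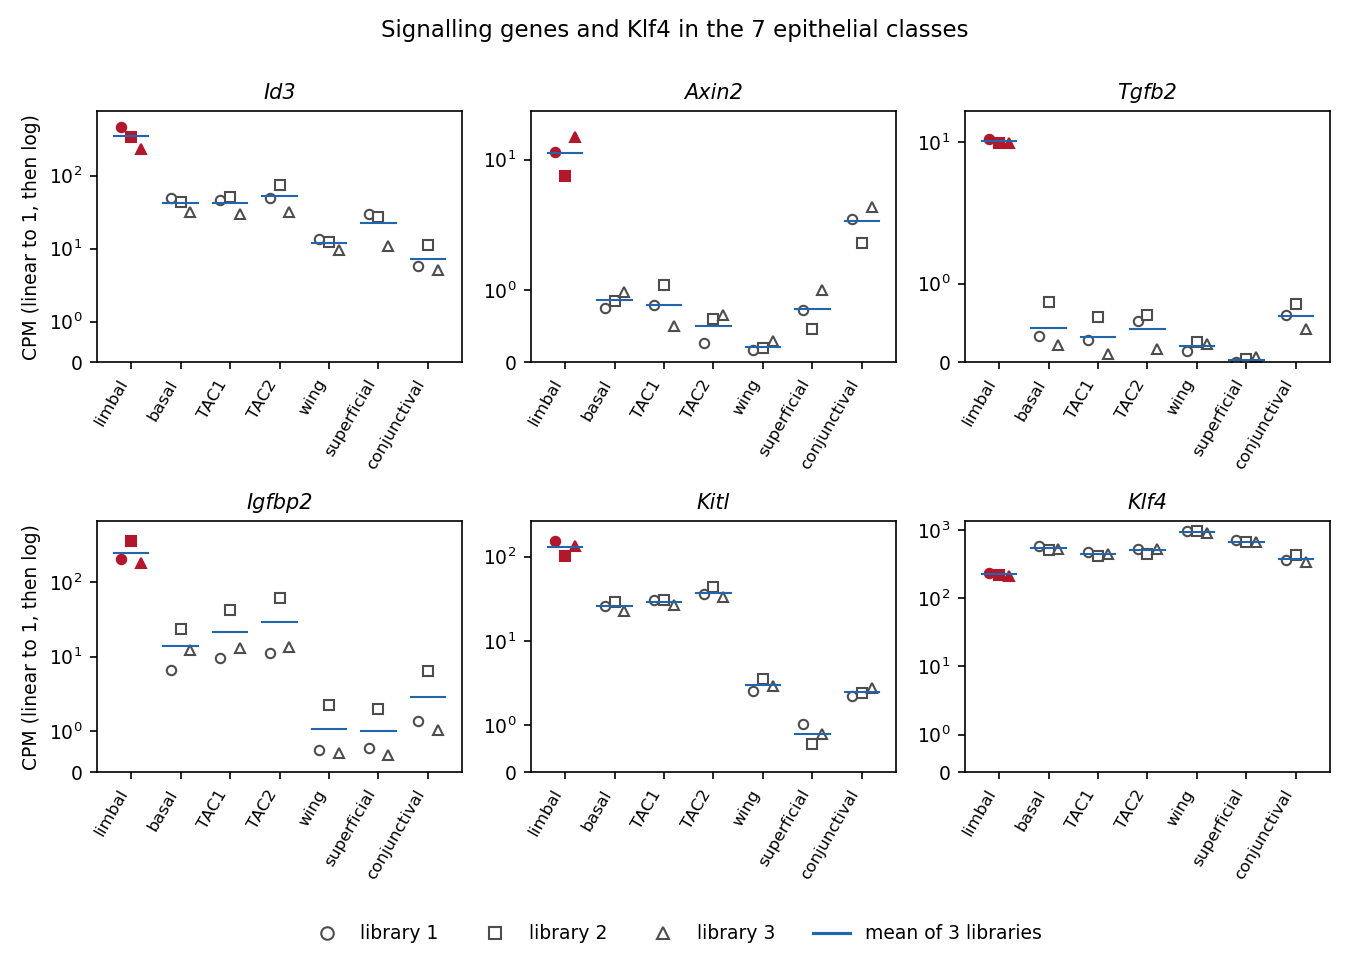
Expression of Id3, Axin2, Tgfb2, Igfbp2, Kitl and Klf4 in CPM (linear up to 1, then logarithmic) for each library and class, with a line at the mean of 3 libraries. Limbal libraries, filled red, lie highest for the first 5 genes and lowest for Klf4.

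Ligands of the epidermal growth factor receptor showed opposite signs against the lower and the upper layers. Hbegf was at 47.2, 53.6 and 36.9 CPM in limbal cells, 2.21 ± 0.19 above basal cells (9.59 CPM) and with a log2 fold change of -5.69 ± 0.12 against superficial cells (992 CPM). Ereg (8.43, 9.60 and 6.92 CPM) and Btc (10.1, 10.1 and 8.65 CPM) had the same pattern. Over the list, 7 of 13 members were higher and 2 lower against basal cells, and 3 were higher and 9 lower of 13 against conjunctival cells (median -1.09). The median of -0.90 against superficial cells turned to 0.39 with library totals. Hbegf, Ereg and Areg levels were also highest in those limbal cells that carried mucosal keratins, described below.

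Adhesion to the basement membrane separated limbal cells from the basal class in 2 directions. Col17a1, the transmembrane collagen of hemidesmosomes, was at 564, 572 and 522 CPM, below basal cells (1212 CPM, log2 fold change -1.25 ± 0.07, edgeR adjusted p = 7.82e-22) and above wing, superficial and conjunctival cells (297, 56.3 and 76.7 CPM). Itgb4, the integrin of hemidesmosomes, was at 113, 122 and 92.9 CPM against 176 CPM in basal cells. Of 24 hemidesmosome and basement membrane genes, 6 were higher and 14 lower than in basal cells, against 16 higher and 1 lower than in wing cells and 18 higher and 1 lower than in conjunctival cells. Members of this list that were higher than in every other class included the collagen chains Col4a5 and Col4a6 and the laminin chain Lamb3. Col4a6 was at 14.3, 17.1 and 16.7 CPM against 0.155 to 2.49 CPM, and Lamb3 was at 52.7, 51.7 and 29.4 CPM against 0.908 to 26.3 CPM. The matricellular genes Ccn2 (19.0, 23.6 and 11.5 CPM, at most 0.686 CPM elsewhere) and Thbs1, the protease inhibitor Timp3 (67.5, 64.8 and 68.6 CPM, at most 38.0 CPM elsewhere) and the collagen chaperone Serpinh1 were also above every class. Fn1 and Tgfbi, in contrast, were lower than in basal cells, by -0.47 ± 0.09 and -1.17 ± 0.07.

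The corneal genes Krt12 and Aldh3a1 were lower in limbal cells than in the basal, TAC1, TAC2 and wing cells of the cornea, while the wider list of corneal crystallins and detoxifying enzymes was split, with 7 higher and 9 lower of 22 against basal cells (median -0.01). Krt12, the keratin of corneal epithelium, stood at 5366, 4257 and 5532 CPM, while basal cells had 19846, TAC1 17681, TAC2 14668, wing 28786 and superficial cells 10091 CPM. In conjunctival cells it was at 4649 CPM, and the called difference of -0.28 ± 0.09 turned to 0.11 with library totals. At 2000 UMIs a Krt12 UMI was present in 81.8% of limbal cells (98.6% without thinning) and in 93.3% of immune cells, so that share is at background. Aldh3a1, the crystallin-like aldehyde dehydrogenase of the cornea, was at 4983, 4129 and 4434 CPM against 15146 CPM in basal cells. It was lower than in 5 classes under TMM and library totals alike, and its difference from superficial cells (2814 CPM) changed sign with library totals. Pax6, the eye regulator, was at 436, 373 and 392 CPM and differed little, by -0.37 ± 0.07 against basal cells. Krt5 was at 6094, 5765 and 5311 CPM and its difference from basal and TAC1 cells was not called.

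Keratins of the conjunctiva and of stratified mucosa were summed over Krt4, Krt13, Krt19, Krt7 and Krt8. Their mean sum was 47.2 CPM in basal, 2236 CPM in limbal and 13662 CPM in conjunctival cells. Wing cells, at 2419 CPM, were near the limbal level, and superficial cells were at 5815 CPM. Krt15 was at 8585, 7918 and 10233 CPM, against 207 CPM in basal and 25402 CPM in conjunctival cells, which was 5.49 ± 0.70 above the first (edgeR adjusted p = 0.0308) and -1.91 ± 0.21 against the second on the log2 scale. Krt13 (868, 953 and 1037 CPM) and Krt19 (331, 340 and 574 CPM) lay between basal means of 30.2 and 6.36 CPM and conjunctival means of 6554 and 3167 CPM. These levels averaged unlike limbal cells. Those with mucosal keratins, described below, had mean Krt13 and Krt19 levels of 2352 and 1048 CPM, against 118 and 34.2 CPM in the rest. That split was itself drawn on these keratins. Of 17 keratins tested 15 were higher and 1 lower than in basal cells (median 4.06), whereas 1 was higher and 17 lower of 19 against conjunctival cells (median -2.31). Krt6a and Krt6b are near-identical in sequence, so reads may be split between them. Krt18, a keratin of simple epithelia, was the only keratin of the list called higher in all 6 comparisons, at 34.2, 18.3 and 14.996 CPM against 0.560 to 6.00 CPM.

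Junction and barrier genes followed the keratins. Of 15 tight junction genes 9 were higher and 0 lower than in basal cells (median 0.80), 13 higher and 0 lower than in TAC2, but 3 higher and 12 lower than in wing cells and 2 higher and 12 lower of 14 against conjunctival cells. Cldn1 was an exception and was higher than in all 6 classes, at 37.1, 37.0 and 35.2 CPM against 3.32 to 13.7 CPM. Cldn8 was too, at 19.0, 8.43 and 15.6 CPM. Cldn4, at 92.3, 59.7 and 44.4 CPM, lay between basal (6.69 CPM) and conjunctival cells (176 CPM). Desmosome and cornified envelope genes were higher for 11 and lower for 3 of 17 against basal cells, and higher for 1 and lower for 15 of 18 against conjunctival cells. These counts moved with the mucosal keratin cells: without them the tight junction median against basal cells turned from 0.80 to -0.09 (7 higher, 2 lower), the desmosome and cornified envelope median moved from 0.71 to 0.05 (8 higher, 6 lower), and the keratin median fell from 4.06 to 2.52 (11 higher, 2 lower). Krt4, Krt13 and Krt19, by which those cells were chosen, are on the keratin list, so its fall was partly set by that choice.

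**Figure D4:**
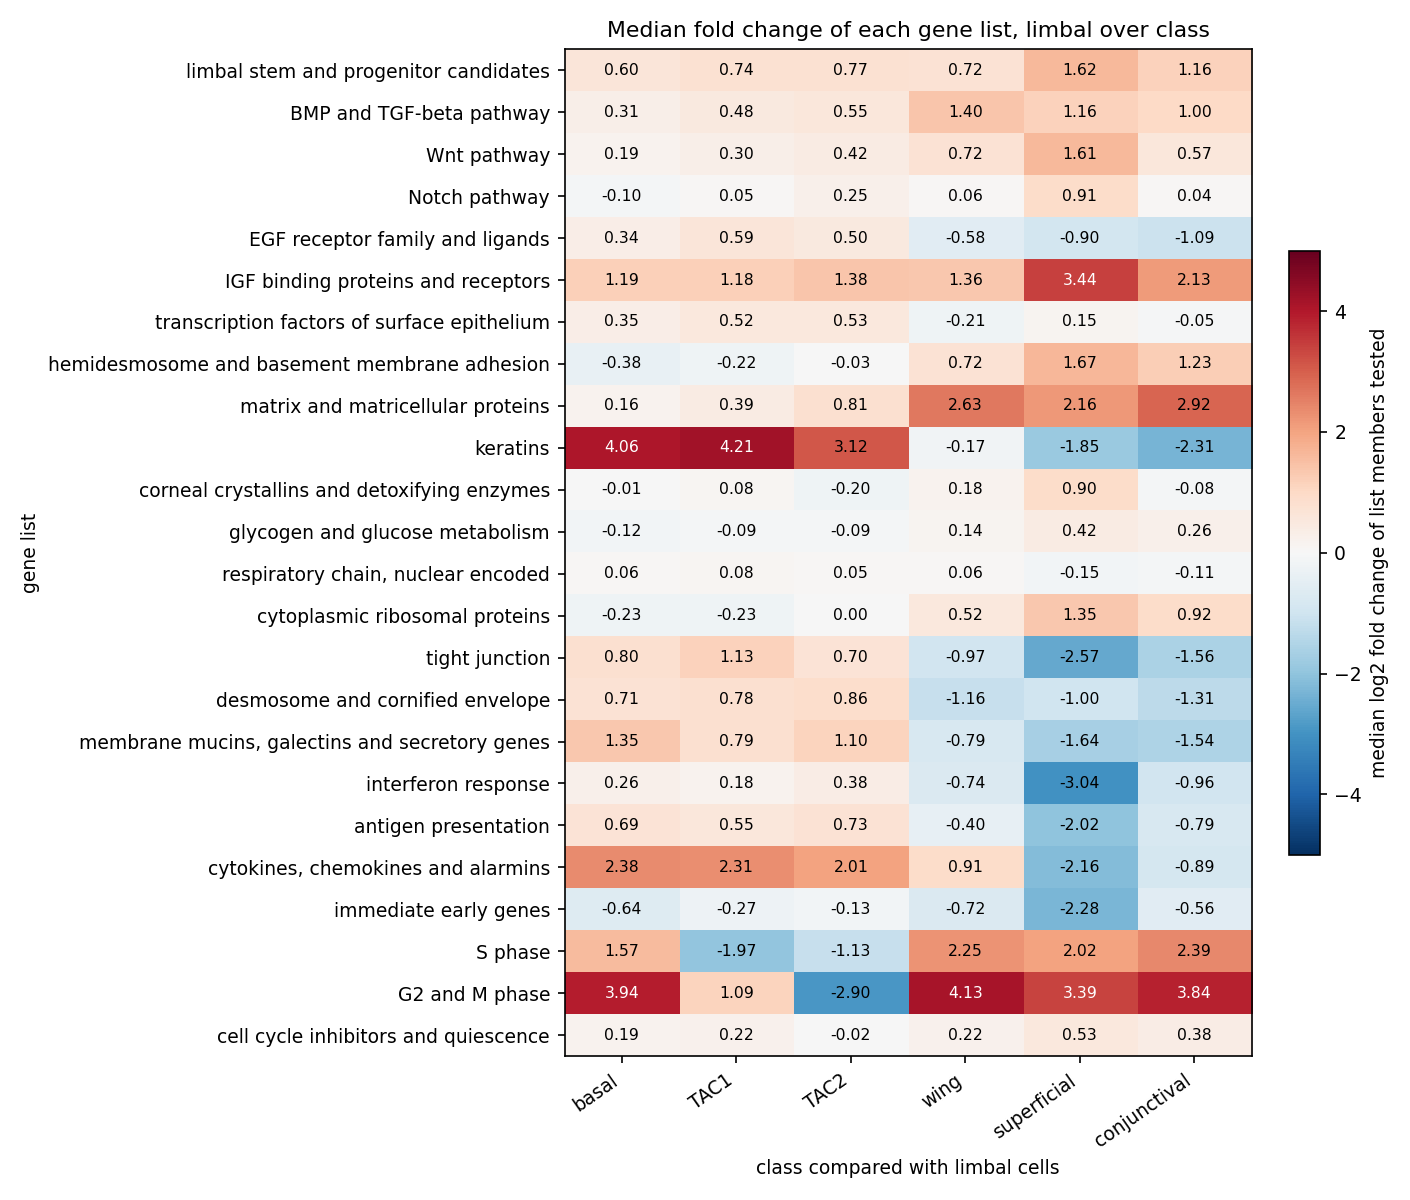
Median log2 fold change of limbal cells over each class (columns) for the members tested of 24 gene lists (rows), from the edgeR fits. Keratins, tight junction and desmosome genes are positive against basal, TAC1 and TAC2 and negative against wing, superficial and conjunctival cells, a sign that library totals turn for keratins against wing cells and for desmosome genes against superficial cells.

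Genes lower in limbal cells than in every other class numbered 235 of 10856 (2.16%), and most differences were small: 15 were at least 2-fold below the nearest class. The number moved with scaling and with the libraries used, being 60 with library totals and 135 without library 1. Of the 10 named by the largest smallest fold, 9 were called in all 6 comparisons with library totals, and 7 held under each of the 12 alternatives. Guca1a, a guanylate cyclase activator known from photoreceptors, was at 46.4, 52.4 and 58.3 CPM against 111 to 339 CPM elsewhere, by -1.31 ± 0.08 against TAC2. Klf4, a zinc-finger factor of epithelial differentiation and barrier formation, was at 239, 223 and 213 CPM against 382 in conjunctival, 449 in TAC1, 505 in TAC2, 546 in basal, 681 in superficial and 943 CPM in wing cells. The limbal libraries lay below all others. Syt8, a synaptotagmin, was at 32.05, 33.7 and 35.2 CPM against 56.8 to 104 CPM, and Aqp5, the water channel of ocular surface and gland epithelium, was at 1736, 1520 and 1802 CPM against 2950 to 11117 CPM. With library totals Aqp5 was called in 5 of the 6 comparisons.

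Transcription factors of surface epithelium that were above every class were Sox4, Tfap2b and Nfib. Sox4, a progenitor factor, stood at 32.9, 37.7 and 31.7 CPM against 0.117 to 4.36 CPM, by 2.71 ± 0.17 against conjunctival cells. Tfap2b was at 44.3, 37.5 and 20.2 CPM against 0.404 to 6.25 CPM. Barx2 (61.1, 92.0 and 56.5 CPM) was far above basal cells (0.249 CPM) and did not differ by test from conjunctival cells (49.3 CPM, 0.11 ± 0.10, edgeR adjusted p = 0.351). Against TAC1 cells 19 of 31 factors on this list were higher and 5 lower, and against wing cells 10 of 32 were higher and 16 lower. The median of -0.21 against wing cells turned to 0.04 with library totals.

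Immediate early genes respond within minutes to stimulation or to tissue dissociation. They were more often lower than higher in limbal cells against all 6 classes, by the least against TAC2. Against basal cells 15 of 22 were lower and 3 higher (median -0.64), against wing cells 15 of 20 and 4, against superficial cells 15 of 20 and 3, and against conjunctival cells 13 of 20 and 3. Against TAC1 8 of 20 were lower and 4 higher (median -0.27), and against TAC2 8 were lower and 7 higher (median -0.13). Of all genes tested, 22.7% were lower and 22.4% higher against TAC1, and 22.4% were lower and 23.1% higher against TAC2. Fos was at 40.1, 32.1 and 42.7 CPM, against 234 CPM in basal cells (log2 fold change -2.78 ± 0.29, edgeR adjusted p = 0.00961) and 40.1 CPM in conjunctival cells. With library totals Fos was lower by test in 5 of the 6 comparisons and Junb in all 6. Junb was at 210, 198 and 291 CPM against 298 to 636 CPM. How dissociation acted on each class was not tested.

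Against basal cells 10 of 14 antigen presentation genes were higher and 0 lower (median 0.69) and 7 of 21 interferon response genes were higher and 0 lower (median 0.26), so most interferon genes did not pass the test. Without mucosal keratin cells the counts were 8 of 13 (median 0.49) and 5 of 21 (median 0.11). Against superficial cells 1 was higher and 11 were lower of 14, and 3 were higher and 17 lower of 22. Over all genes the shares were 21.4% higher and 18.8% lower against basal cells and 40.2% and 40.1% against superficial cells. Psmb8, a subunit of the immunoproteasome, was at 154, 115 and 135 CPM, between 37.8 CPM in basal and 816 CPM in superficial cells. Psmb8 was also higher in limbal cells with mucosal keratins (199, 161 and 204 CPM) than in the others (128, 88.6 and 90.2 CPM). Ifitm1, next to Ifitm3 in its family, was at 2611, 2819 and 3354 CPM against 55.0 CPM in basal and 8289 CPM in conjunctival cells, so the 2 family members differed in pattern, although sequence likeness may mix their reads. Ifitm2 (359, 419 and 421 CPM) was higher than in all 6 classes. Tslp, an epithelial cytokine of type 2 immunity, was at 15.6, 14.7 and 11.5 CPM and above every class, with 5.90 CPM in conjunctival cells.

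Division genes were detected in the limbal class. A Mki67 or Top2a UMI was present at 2000 UMIs in 6.79%, 6.36% and 8.22% of limbal cells (7.12 ± 0.974%, and 19.4% without thinning), against 1.72 ± 0.193% of basal, 9.77 ± 2.66% of TAC1, 58.9 ± 4.04% of TAC2 and 0.701 ± 0.218% of conjunctival cells. In immune cells the share was 3.99%. All 26 G2 and M phase genes were called higher than in basal cells (median 3.94), and all 26 were lower than in TAC2 (median -2.90). Of 24 S phase genes 23 were higher than in basal cells (median 1.57), 24 were lower than in TAC1 (median -1.97) and 22 lower than in TAC2. The basal class leaves out the cells labelled TAC1 and TAC2, in which Mki67 or Top2a UMIs were more frequent. The counts against basal cells therefore depend on how the classes were drawn and do not compare limbal cells with basal and TAC cells together. Mki67 was at 53.1, 42.4 and 42.1 CPM, between 5.09 CPM in basal and 354 CPM in TAC2 cells. Among inhibitors, Cdkn1c (p57) was above every class at 25.3, 24.8 and 17.9 CPM against 4.76 to 14.8 CPM, while Cdkn1a (p21) was at 84.8, 83.8 and 90.6 CPM, between 17.8 CPM in TAC1 and 381 CPM in wing cells. Against TAC1 the G2 and M result depended on cells with high doublet scores. With all cells 17 of 26 genes were higher and 1 lower (median 1.09), and without the 10% of cells with the highest scores in each library 2 were higher and 17 lower of 25 (median -1.25). A high score was given to 16.6% of limbal, 6.55% of basal and 12.4% of TAC1 cells. The share of dividing cells and the counts against basal and TAC2 cells above were taken with all cells, those with high scores included.

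Each comparison also had its own leading genes. The genes named here are among the 5 largest folds in their direction with a mean log2 CPM of at least 5 over the 6 sums compared. Against basal and TAC1 cells they included Cyp2f2, a xenobiotic-metabolising P450 (311, 150 and 166 CPM against 0.219 and 0.110 CPM), and against TAC1 also Alox12e, an epidermal lipoxygenase (115, 153 and 45.6 CPM against 0.308 CPM). Lower than in basal cells were Lsamp, a neural adhesion protein, at 8.86, 6.79 and 9.23 CPM against 86.8 CPM (-3.52 ± 0.14), and Piezo2, a mechanosensitive channel, at 12.2, 7.26 and 19.6 CPM against 76.3 CPM (-2.79 ± 0.14). Both were also lower than in TAC1, TAC2 and wing cells and were called higher than in conjunctival cells. Against TAC2 the genes furthest below were the S phase histones, such as Hist1h1b at 29.1, 20.6 and 3.46 CPM against 515 CPM, and the mitotic kinesin Kif2c. Among these histones, Hist1h2ap and Hist1h2ae have near-identical copies. Against wing cells Muc15, a membrane mucin, was lowest relative to the class compared, at 16.0, 11.0 and 16.1 CPM against 135 CPM (-3.48 ± 0.11). Against superficial cells the late cornified envelope gene Lce3a (3.37, 5.85 and 2.31 CPM against 2454 CPM) and Crct1 (0.843, 1.17 and 1.15 CPM against 303 CPM) were among the 5, with -10.48 ± 0.18 and -9.59 ± 0.18, and Lce3f, Il4i1 and Lce3b had too few limbal UMIs for a fold. Against conjunctival cells the largest positive folds at that mean level were those of Igfbp2 (6.02 ± 0.35), Igfbp7 (5.73 ± 0.22) and Kitl, and the largest negative ones those of the alcohol dehydrogenase Adh6a (-3.82 ± 0.17), Tspan1 (-3.68 ± 0.19), Itgam (-3.62 ± 0.18) and the secreted protease inhibitor Slpi (-3.61 ± 0.22). Slpi was uneven over limbal libraries, at 3.80, 5.85 and 18.5 CPM.

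Within the limbal class, a minority of cells carried keratins of mucosal epithelium. At 2000 UMIs, 182 of 727 cells (35, 83 and 64 by library, or 21.6%, 24.0% and 29.2%) had at least 3 UMIs of Krt4, Krt13 and Krt19 summed, against 0.141 ± 0.140% of basal, 37.8 ± 0.942% of wing, 93.8 ± 0.714% of conjunctival and 1.90% of immune cells. Without thinning the limbal share was 43.2%. The counts formed a range and not separate groups: 382 cells had none, 111 had 1, 52 had 2, 21 had 3, 25 had 4 and 69 had 11 or more. The 182 cells had a median of 11449 UMIs and a high doublet score in 40.1% of cases, against 8186 UMIs and 8.99% in the other 545. Whether doublets with wing or conjunctival cells make up some of them was not tested.

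With cells of high doublet score included, limbal markers were less often seen in the cells with mucosal keratins in every library. Gpha2 was seen in 54.3%, 71.1% and 39.1% of them, against 90.6%, 91.6% and 89.0% of the rest, and Ifitm3 in 28.6%, 51.8% and 25.0% against 75.6%, 78.7% and 73.5%. Krt14 was seen in 62.9%, 84.3% and 42.2% against 92.9%, 95.1% and 89.7%, and Cd63 in 8.57%, 14.5% and 10.9% against 29.1%, 27.8% and 32.3%. Id1 was nearest to even, at 42.9%, 28.9% and 45.3% against 56.7%, 44.5% and 51.6%. With the highest doublet scores left out, Gpha2 was seen in 59.6% of the 109 remaining cells with mucosal keratins and in 92.5% of the 496 without. Gpha2, Ifitm3, Krt14 and Cd63 stayed less frequent with mucosal keratins in each library, though Krt14 in library 2 was close (92.2% against 95.4%). Id1 was then at 60%, 41.2% and 52.6% against 58.5%, 47.3% and 52.5%, so it was lower in library 2 only. This split was drawn from the same cells and has no test.

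**Figure D5:**
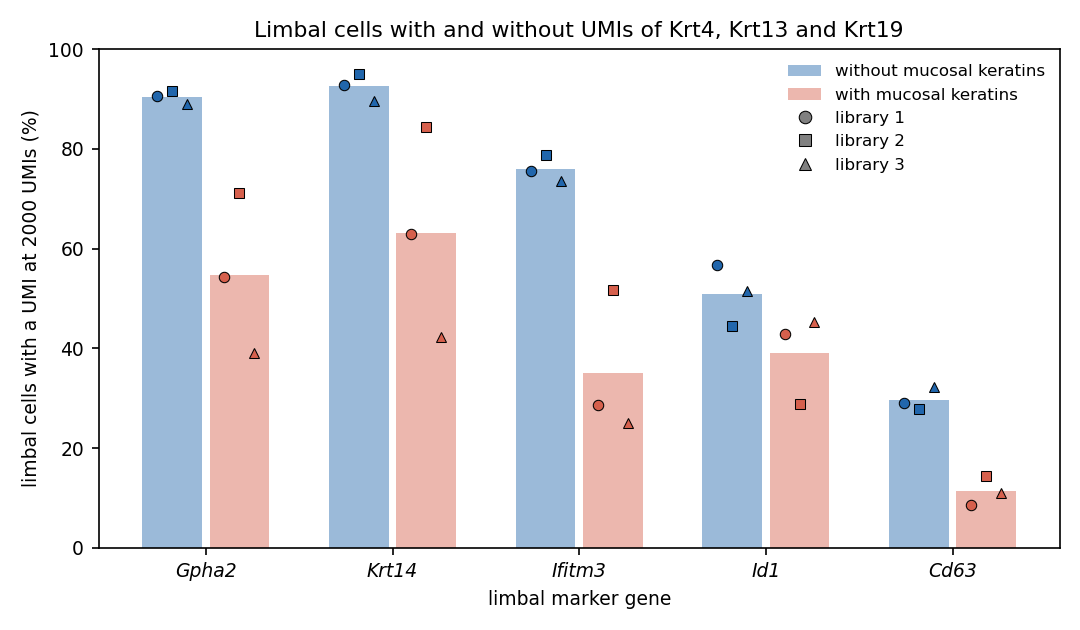
Share of limbal cells with a UMI of each limbal marker at 2000 UMIs, for cells without (blue) and with (red) at least 3 UMIs of Krt4, Krt13 and Krt19; bars are means of 3 libraries from 0 and points are libraries. Gpha2, Krt14, Ifitm3 and Cd63 are lower in the cells with mucosal keratins in each library, and Id1 differs least.

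Summed levels in the 2 sets of limbal cells gave the same picture for most of the class's leading genes. Gpha2 was at 1034, 1482 and 528 CPM with mucosal keratins and at 3616, 3617 and 3900 CPM without, and Apoe at 1354, 858 and 735 CPM against 4328, 3632 and 3789 CPM. Kitl was at 57.6, 35.1 and 26.5 CPM against 208, 141 and 205 CPM. Sox4 overlapped between the sets, at 19.6, 38.4 and 38.2 CPM against 40.6, 37.3 and 27.8 CPM, and so did Notch1. Krt12 did not separate them either, at 7059, 3392 and 5783 CPM against 4388, 4744 and 5398 CPM. Higher with mucosal keratins were Hopx (1637, 1361 and 1403 CPM against 369, 141 and 131 CPM), Elf3, an epithelial differentiation factor (356, 362 and 387 CPM against 124, 94.5 and 103 CPM), Cdkn1a (153, 165 and 154 CPM against 45.3, 38.4 and 48.9 CPM) and Areg (25.4, 62.4 and 38.2 CPM against 5.99, 4.39 and 1.92 CPM). Krt15 was at 13822, 12937 and 16235 CPM against 5558, 5095 and 6354 CPM.

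Without the cells that carried mucosal keratins, the genes lower in limbal cells than in every class rose in number from 235 to 358. The 51 limbal cells with a Mki67 or Top2a UMI (11, 22 and 18 by library) also carried Gpha2 less often, in 45.5%, 72.7% and 38.9% of cases, against 85.4%, 87.7% and 77.6% of the other 676. Of these 51, 21 carried mucosal keratins (41.2%), against 161 of the other 676 (23.8%).

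Between libraries, the limbal levels of some genes varied far more than those of Gpha2 or Cd63. Library 2 was highest for the keratinocyte genes Krtdap (2.11, 42.4 and 13.3 CPM), Sprr1a (2.53, 110 and 20.2 CPM) and Krt17 (266, 719 and 398 CPM), and library 3 for the neutrophil-type alarmin S100a9 (7.17, 2.81 and 62.9 CPM). Id3 and Csrp2 were highest in library 1. No pair of libraries differed in age, sex or number of mice alone, so these cannot be told apart as sources of such differences.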

How the data were processed

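Values were raw UMI counts per gene and cell, deposited by the authors with a cell table that gives each cell's library and class. Cell Ranger 5.0.0, Seurat 4 and the mm10 build are named per the submitters' processing notes. No source used here tells how the authors drew the classes or treated doublets. From their markers, cells labelled Conj are called conjunctival, those labelled Squam superficial and those labelled LSC limbal. TAC1 and TAC2 keep their labels. The table held 17931 genes, and 0 columns were left unused.

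Counts were summed per library and class, and each comparison of limbal cells with another class was fitted across genes with edgeR 4.0.16 (R 4.3.3) by its quasi-likelihood test on the 6 sums, with TMM scaling, filterByExpr and the library as a block, because both classes of a pair come from the same libraries. A gene was called at a Benjamini-Hochberg adjusted p under 0.05. The script was tested on simulated data. Shares of cells used cells thinned to 2000 UMIs. Doublet scores came from simulated doublets, and cells in the highest 10% of a library were left out in an alternative. DESeq2 1.42.0 was another.

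Named genes were the 5 largest higher and lower per comparison at a mean log2 CPM of at least 5, the 20 higher and 10 lower than all classes with the largest smallest fold and at least 20 CPM, and up to 6 members of each of 24 lists (565 genes, 536 in the table). Other list members are named where they were above or below every class, or for their known role, after their values were seen. The class, markers and lists were chosen with earlier results of these data known. Gene coordinates come from the GENCODE annotation of GRCm38, the assembly of mm10. Gene coordinates come from the GENCODE annotation of GRCm38, the assembly of mm10. The corneal endothelium marker list is not reported here. Intervals cover counting error only.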

Additional observations from a re-analysis of the deposited data

How the results depend on the processing

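Counts of called genes moved with the tool and the depth. DESeq2 called 3193 genes against basal, 3199 against TAC1 and 3356 against TAC2 cells. With other classes drawn to equal cell numbers, 3246 genes were called against basal cells. At 2000 UMIs per cell the counts were 1905, 2000, 2030, 3996, 5629 and 3606 against basal, TAC1, TAC2, wing, superficial and conjunctival cells. Genes higher than in every class numbered 276 with equal cell numbers and 180 at 2000 UMIs. Genes lower than in every class, 235 in the report, numbered 108 with DESeq2, 60 with library totals, 115 with equal cell numbers, 80 at 2000 UMIs and 358 without mucosal keratin cells, and between 135 and 193 when a library was left out. Without the replicate block, that is without the pairing of classes by library, 115 were lower than in every class, and no other count of called genes moved by over 1.5 times. With library totals Krt12 against conjunctival cells turned to 0.11, and against superficial cells Aldh3a1 turned to 0.71 and Wnt4 to 0.25 on the log2 scale. Of 670 values of 56 gene differences under the alternatives, 609 kept direction and side of the threshold, 55 lost the call, 3 gained it and 3 reversed. The cause was not tested, except that equal cell numbers and 2000 UMIs leave fewer counts by construction.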
